A study of Mus musculus with 2 samples.

Results

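The miR-29 family of the mouse is made from 4 hairpin genes, Mir29a, Mir29b-1, Mir29b-2 and Mir29c, and its members were taken by symbol from the 2202 microRNA genes of the GENCODE M21 annotation. All 4 were found and all 4 had at least 10 reads in both libraries, as had 273 of the 2202 genes. The libraries came from the gastrocnemius, the large muscle of the calf, of B6CASTF1/J females aged 36 days, a hybrid of the C57BL/6 and CAST/EiJ strains in the first generation. There were 2 libraries, biological replicates 2 and 1, and they form 1 untreated group, so the only comparison the design allows is that of replicate 2 with replicate 1. The labels call them separate females, yet both records carry the same donor identifier, so the spread between them may be technical. The tissue was whole muscle, in which fewer cells of a type and less RNA per cell cannot be told apart.

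A microRNA is cut from a hairpin transcript, and 1 arm is loaded into an Argonaute protein, where its seed, bases 2 to 8, pairs with sites in the 3′ untranslated regions of mRNAs and lowers their output. The miR-29 microRNAs are known for holding down collagens, elastin and fibrillin, so that a fall in miR-29 accompanies fibrosis in heart, kidney, lung and muscle. They also target the DNA methyltransferases Dnmt3a and Dnmt3b and the Tet enzymes. In skeletal muscle they are known to rise as myoblasts differentiate, a step in which miR-29 represses the transcription factor Yy1, and to act on Pik3r1 and Igf1.

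The mature sequences of the 3p arm show why the genes form 1 family, and they are given 5′ to 3′ from RefSeq (GRCm38.p6) with the seed in capitals.
miR-29a-3p: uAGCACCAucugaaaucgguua
miR-29b-3p: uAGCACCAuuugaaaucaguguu
miR-29c-3p: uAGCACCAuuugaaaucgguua
All share 1 seed, and this seed occurred in 4 of 1738 mature entries of the RefSeq table, those of the 4 genes. Counted from 1 at the 5′ end, miR-29a-3p and miR-29c-3p differ by 1 substitution, C10U. From miR-29a-3p to miR-29b-3p there are 4 substitutions within the shared length, C10U, G18A, U21G and A22U, and miR-29b-3p is 23 bases long where the other two have 22. The first 17 bases of miR-29b-3p and miR-29c-3p are the same, and A18G, G21U and U22A lead from the b to the c form. The same miR-29b-3p is annotated in both Mir29b hairpins.

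The 5p arms, which are cut from the other side of each hairpin, do not share that seed. They are shown with their own bases 2 to 8 in capitals.
miR-29a-5p: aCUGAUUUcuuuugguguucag
miR-29b-1-5p: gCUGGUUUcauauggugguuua
miR-29b-2-5p: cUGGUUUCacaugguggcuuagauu
miR-29c-5p: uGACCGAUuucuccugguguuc
These 4 seeds differ from each other, so the family is defined by its 3p arm. The deposited counts are per hairpin gene and do not separate the arms.

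A read that lies within a stretch shared by several hairpins cannot be placed at 1 of them, and the hairpins are printed for that reason with capitals on every base that lies in a 20-base stretch also found in another of the 2202 annotated hairpins.
Mir29a: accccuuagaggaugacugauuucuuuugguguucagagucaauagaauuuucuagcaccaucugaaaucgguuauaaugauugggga
Mir29c: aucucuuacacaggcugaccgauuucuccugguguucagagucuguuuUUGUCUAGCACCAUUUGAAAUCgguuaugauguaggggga
Mir29b-1: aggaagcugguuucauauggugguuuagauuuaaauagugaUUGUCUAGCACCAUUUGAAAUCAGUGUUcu
Mir29b-2: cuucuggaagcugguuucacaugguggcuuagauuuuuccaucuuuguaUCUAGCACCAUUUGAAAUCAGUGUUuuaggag
Mir29a held no such stretch. Mir29c held 22 such bases, shared with Mir29b-1, but none of the 20-base windows inside its mature 3p arm was among them. Mir29b-1 held 28 such bases, shared with Mir29b-2 and Mir29c, and Mir29b-2 held 25, shared with Mir29b-1. In both Mir29b hairpins the capitals cover the whole 3p arm, and 4 of its 4 windows of 20 bases were shared. Such a stretch was found in 1084 of the 2202 hairpins (49.2%). Only annotated hairpins on their own strand were searched, not the genome.

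**Figure D1:**
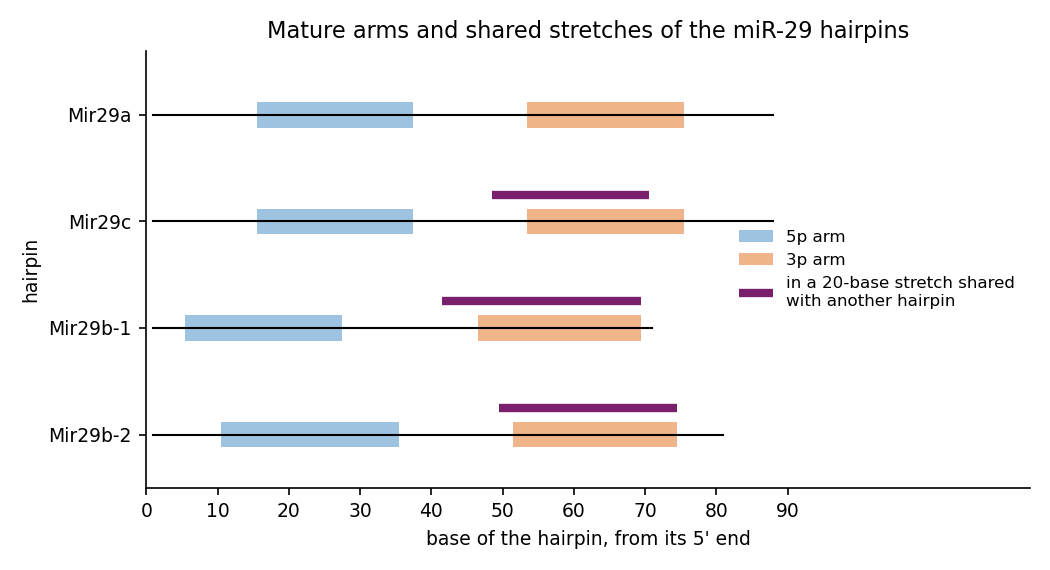
The 4 hairpins are drawn to scale from their 5′ end (x axis, bases), with the mature 5p and 3p arms as boxes and, above them, the span covered by 20-base stretches shared with another annotated hairpin. The span covers the 3p arm of both Mir29b hairpins, covers part of that of Mir29c and is missing from Mir29a.

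The genes lie in pairs on separate chromosomes (mm10, GENCODE M21). Mir29a, ENSMUSG00000065610.1, lies on chromosome 6 from 31062660 to 31062747 on the minus strand. Mir29b-1, ENSMUSG00000065604.2, is 275 bases away at 31063023 to 31063093 on the same strand, and by 2 bases it overlaps Gm27019, a lincRNA gene. Mir29b-2, ENSMUSG00000065412.3, lies on chromosome 1 from 195037040 to 195037120 on the plus strand. Mir29c, ENSMUSG00000065548.1, follows after 426 bases at 195037547 to 195037634 on the same strand. Mir29b-2 and Mir29c both lie in exon 3 of A330023F24Rik-204, a retained-intron transcript, and opposite the 3′ untranslated part of exon 11 of Cd46-203. No read was counted on the opposite strand at any of the 4 genes in replicate 2 or in replicate 1. A count of 0 allows up to 3 reads, which is 1.44 reads per 1000000 gene-assigned reads (CPM) in replicate 2 and 1.88 CPM in replicate 1.

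Of 14072830 reads in replicate 2 and 9538917 in replicate 1, 2078101 and 1593787 were assigned to microRNA genes. Reads placed at several loci belong to no gene and made up 77.6% of replicate 2 and 75.4% of replicate 1. PCR copies could not be recognised, and every interval and p below covers counting error only. The skeletal muscle marker Mir206 was among the more abundant genes, with 67030 CPM in replicate 2 and 20620 CPM in replicate 1. Of the 9 muscle markers 7 had at least 10 reads in both libraries. Mir208b was counted 889 times in replicate 2 and 5 times in replicate 1.

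Mir29a and Mir29c carried nearly all of the family's assigned reads, and both were lower in replicate 2 than in replicate 1. The reads of Mir29a numbered 2994 in replicate 2 and 3792 in replicate 1. On the CPM scale that was 1441 (95% exact Poisson interval 1390 to 1493) in replicate 2 and 2379 (2304 to 2456) in replicate 1, with a mean of 1910 ± 664 CPM (SD, n = 2). By singly placed reads it ranked 50 among all genes in replicate 2 and 40 in replicate 1. Within those reads it was thus a gene of fairly high but not top abundance.

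Mir29c had 1162 reads in replicate 2 and 2544 in replicate 1. Its level was 559 CPM (527.5 to 592.3) in replicate 2 and 1596 CPM (1535 to 1659) in replicate 1, with a mean of 1078 ± 733 CPM (SD, n = 2). It ranked 82 in replicate 2 and 55 in replicate 1. Mir29a was above Mir29c within each library, while the level of Mir29c in replicate 1 was above that of Mir29a in replicate 2. The means, 1910 and 1078 CPM, thus keep the order seen within each library, but the ranges of these genes over the libraries overlap.

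The Mir29b genes, both of which encode miR-29b-3p, stood far below. Mir29b-1 had 24 reads in replicate 2 and 17 in replicate 1, that is 11.6 CPM (7.40 to 17.2) and 10.7 CPM (6.21 to 17.1), with a mean of 11.1 ± 0.624 CPM (SD, n = 2). Mir29b-2 had 20 reads in replicate 2 and 20 in replicate 1, that is 9.62 CPM (5.88 to 14.9) and 12.6 CPM (7.67 to 19.4), with a mean of 11.1 ± 2.07 CPM (SD, n = 2). Their intervals overlapped in each library, and neither gene stood above the other. Since reads that match both miR-29b-3p loci alike are in no gene's count, these values are those of the singly placed reads and not the level of miR-29b.

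**Figure D2:**
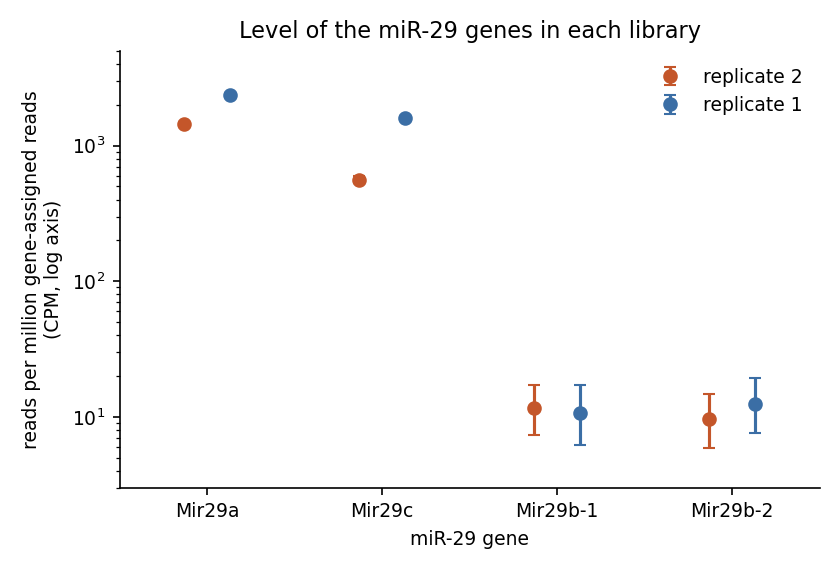
Level of each miR-29 gene (y axis, CPM, log scale) in replicate 2 and replicate 1, with 95% exact Poisson intervals, which are smaller than the points for Mir29a and Mir29c. Mir29a and Mir29c lie between 559 and 2379 CPM, with replicate 2 below replicate 1, and both Mir29b genes lie near 11.1 CPM with overlapping intervals.

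Taken over the family, 4200 reads in replicate 2 and 6373 in replicate 1 were counted. They made up 0.202% of the gene-assigned reads of replicate 2 (95% Wilson interval 0.196 to 0.208) and 0.400% of those of replicate 1 (0.390 to 0.410), a mean of 0.301% ± 0.140 (SD, n = 2). The share was thus lower in replicate 2, by 1.89-fold (1.82 to 1.96) after scaling of the libraries. With reads placed at several loci added to the denominator only, the family's counted reads were 0.0323% of replicate 2 and 0.0725% of replicate 1.

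The composition of the family's singly placed reads differed between the libraries as well. Reads that match both miR-29b-3p loci alike are in no gene's count, so these shares are not the make-up of the mature microRNAs. Mir29a held 71.3% of the family's reads (69.9 to 72.6) in replicate 2 and 59.5% (58.3 to 60.7) in replicate 1. Mir29c held 27.7% (26.3 to 29.04) in replicate 2 and 39.9% (38.7 to 41.1) in replicate 1. Mir29a was the larger part in both, by more in replicate 2, and the Wilson intervals of the libraries did not overlap for either gene. Mir29b-1 held 0.571% (0.384 to 0.849) in replicate 2 and 0.267% (0.167 to 0.427) in replicate 1, and Mir29b-2 held 0.476% (0.309 to 0.734) and 0.314% (0.203 to 0.484). Summed by locus, the chromosome 6 pair held 71.9% (70.5 to 73.2) of the family's reads in replicate 2 and 59.8% (58.6 to 61.0) in replicate 1, and the chromosome 1 pair held the remaining 28.1% (26.8 to 29.5) and 40.2% (39.0 to 41.4).

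**Figure D3:**
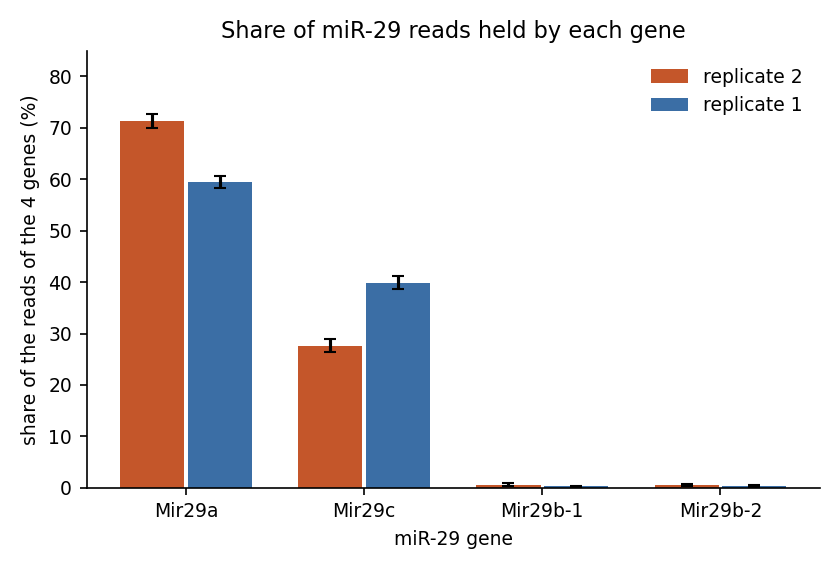
Share of the family's singly placed reads held by each gene (y axis, percent) in replicate 2 and replicate 1, with 95% Wilson intervals. Mir29a holds 71.3% in replicate 2 and 59.5% in replicate 1, Mir29c 27.7% and 39.9%, and each Mir29b gene under 1%.

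Each gene's reads were next set against the scaled sizes of the libraries, for all 273 genes with at least 10 reads in both, by a two-sided exact binomial test. P-values were adjusted by Benjamini-Hochberg over those genes, with a threshold of 0.05, and they speak of these libraries and of no condition. The test called 172 of 273 genes (63.0%) in either direction, 91 higher and 81 (29.7%) lower in replicate 2. With upper quartile scaling the calls were 71 higher and 95 lower, so the balance of directions depends on the scaling. A call is therefore common here, and that 2 of the 4 miR-29 genes had one is close to the background.

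Mir29a was 1.58-fold lower in replicate 2 (95% interval 1.502 to 1.654), a log2 ratio of -0.66 with an adjusted exact p of 4.7e-77. Mir29c was 2.73-fold lower (2.54 to 2.92), a log2 ratio of -1.45 with an adjusted exact p of 6.7e-191. Over all 273 genes the median log2 ratio was 0.02 and the median size of the ratio, sign aside, was 0.36, so both genes moved by more than most. Mir29c had the 10th lowest ratio of 273 genes and Mir29a the 39th lowest. A fold of more than 2 downward, which Mir29c passed and Mir29a did not, was reached by 19 of 273 genes (6.96%). Among the 79 genes that averaged 1000 reads or more, a limit chosen after the values were seen, Mir29c had the 3rd lowest and Mir29a the 7th lowest ratio.

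The Mir29b genes did not pass the test. Mir29b-1 had a fold of 1.13 (0.584 to 2.25) in replicate 2 over replicate 1, a log2 ratio of 0.18 and an adjusted exact p of 0.84. Mir29b-2 had a fold of 0.803 (0.410 to 1.57), a log2 ratio of -0.32 and an adjusted exact p of 0.64. With 17 to 24 reads a library, the intervals of both genes include the fold of Mir29a (0.634 in the same direction) and leave out that of Mir29c (0.367).

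The depth of the counts makes small differences pass the binomial test, so the ratios were also tested at the spread that the genes themselves show. The common dispersion that edgeR estimated over these libraries had a square root of 0.335, and edgeR's exact test at that dispersion called 4 of 273 genes (1.47%). Mir29c was not among them (adjusted p = 0.71) and neither was Mir29a (adjusted p = 1). Since that dispersion contains the difference between the same libraries, it is a description of which ratios are large for their depth.

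**Figure D4:**
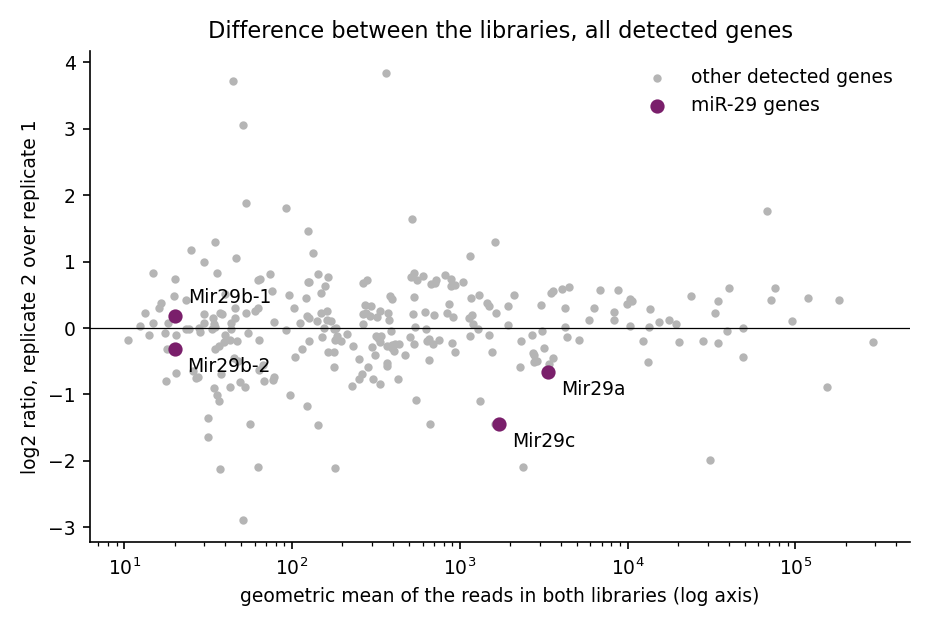
Log2 ratio of replicate 2 over replicate 1 (y axis) against the geometric mean of the reads (x axis, log scale) for the 273 genes with at least 10 reads in both libraries, with the miR-29 genes marked. Mir29c at -1.45 and Mir29a at -0.66 lie low among genes of like depth, and the Mir29b genes lie among the wide scatter of shallow genes.

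Ratios between members within a library need no scaling, and the 6 pairs were compared between the libraries by two-sided Fisher's exact tests, adjusted over the 6. Mir29a had 2.58 reads per read of Mir29c in replicate 2 and 1.49 in replicate 1. The log2 ratio was thus higher by 0.79 (0.67 to 0.91) in replicate 2, with an adjusted Fisher's exact p of 4.1e-37, and averaged 0.97 ± 0.56 (SD, n = 2). Mir29a and Mir29c, which differ by 1 base in the mature 3p arm, were therefore unequally lower in replicate 2.

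Both Mir29b genes were higher relative to Mir29c in replicate 2. For Mir29b-1 there were 0.0207 reads per read of Mir29c in replicate 2 and 0.00668 in replicate 1, a log2 difference of 1.63 (0.66 to 2.62) with an adjusted exact p of 0.0016. For Mir29b-2, the neighbour of Mir29c, there were 0.0172 in replicate 2 and 0.00786 in replicate 1, a log2 difference of 1.13 (0.15 to 2.11) with an adjusted exact p of 0.032. The genes of the chromosome 1 pair thus did not keep 1 ratio in the singly placed reads.

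The remaining 3 pairs did not pass. Per read of Mir29b-1, the ratio for Mir29a was 124.8 reads in replicate 2 against 223.1 in replicate 1, a log2 difference of -0.84 (-1.83 to 0.12, adjusted exact p = 0.12). Per read of Mir29b-2, the ratio for Mir29a was 149.7 reads in replicate 2 against 189.6 in replicate 1, a log2 difference of -0.34 (-1.31 to 0.63, adjusted exact p = 0.52). Mir29b-1 and Mir29b-2 were at 1.2 to 1 in replicate 2 and 0.85 to 1 in replicate 1, a log2 difference of 0.50 (-0.90 to 1.90, adjusted exact p = 0.52). These intervals are wide and include 0, so they show neither a change nor a constant ratio.

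**Figure D5:**
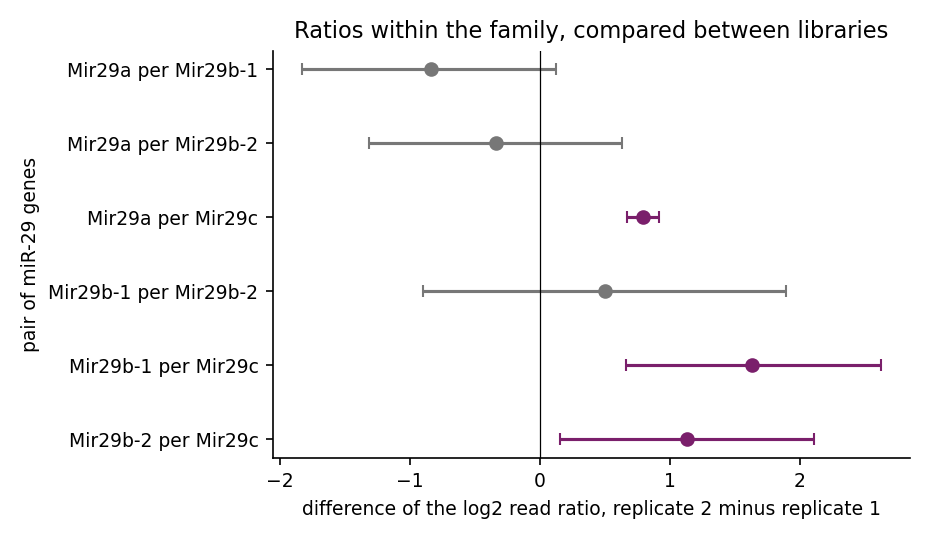
Difference between the libraries in the log2 read ratio of each pair of miR-29 genes (x axis, replicate 2 minus replicate 1) with its 95% interval, in purple where Fisher's exact test passed after adjustment. The 3 pairs with Mir29c pass, that of Mir29a with Mir29c at 0.79 having the narrowest interval.

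The genes nearest to each member were found by the distance of log2(CPM + 1) over the 2 libraries, which is a description of likeness in level only. Nearest to Mir29a was Mir145a, a microRNA of smooth muscle, with 1506 CPM in replicate 2 and 2291 CPM in replicate 1, at a distance of 0.08. Mir17 (0.20) and Mir532 (0.27) followed. Nearest to Mir29c was Mir338, known from myelinating glia, with 532 CPM in replicate 2 and 1513 CPM in replicate 1, at a distance of 0.11. Mir106b (0.59) and Mir101b (0.80) were farther off, so only Mir338 lay close to Mir29c. The Mir29b genes had Mir6516, Mir877 and Mir3058 or Mir6516, Mir6240 and Mir103-2 nearest, all within 0.23 and all with 26 reads or fewer in a library.

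Markers of several cell types moved between the libraries beside Mir29a and Mir29c. Of all 273 genes 63.0% were called, 91 higher and 81 (29.7%) lower in replicate 2. Of the 9 skeletal muscle markers 7 could be tested. Of these, 4 were called higher, 0 lower and 3 not called in replicate 2. Mir1a-1 (log2 ratio -0.73) and Mir133a-1 (-0.44) were among those not called. The list had a summed level of 69820 CPM in replicate 2 and 22090 CPM in replicate 1. Most of that sum was Mir206. The other members called higher were Mir499 (14.3-fold, 735 CPM in replicate 2 and 54.0 CPM in replicate 1), Mir486 (1.26-fold) and Mir1a-2 (1.14-fold). Both smooth muscle markers, Mir143 and Mir145a, were lower in replicate 2, with 62540 CPM in replicate 2 and 120300 CPM in replicate 1. Both listed markers of red blood cells, Mir451a and Mir144, were lower too, with 8982 CPM in replicate 2 and 37350 CPM in replicate 1. Mir486, counted here as a muscle marker only, is shared with red blood cells and went the other way (1.26-fold higher). The summed markers of skeletal muscle were thus higher in replicate 2, mostly through Mir206, and the members of that list did not move alike. The summed markers of smooth muscle and of red blood cells were lower. By total reads or upper quartiles 3 of the muscle markers were called higher, without Mir1a-2.

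The remaining markers went both ways. Of all 273 genes 63.0% were called in either direction and 29.7% lower, so the counts below are descriptions and no result about a cell type. Of 4 leukocyte markers, 2 were higher (Mir155 and Mir150) and 2 lower (Mir142 and Mir223), with 2091 CPM in replicate 2 and 1422 CPM in replicate 1. Of 4 fibroblast markers, Mir214 was higher, Mir199b was lower, Mir199a-2 did not pass and Mir199a-1 had 0 reads in both. Their sums were 698 CPM in replicate 2 and 652 CPM in replicate 1. Most of both sums was Mir214, with 633.3 CPM in replicate 2 and 423.5 CPM in replicate 1. The counts hold singly placed reads only, so 0 reads need not mean that the microRNA was absent. Of 3 glial markers Mir338 was lower, while Mir219a-1 and Mir219a-2 had at most 8 reads in a library. The 1 endothelial marker with at least 10 reads in both, Mir126a, was 1.34-fold higher in replicate 2 (1.33 to 1.34). The heart marker Mir208a had 15 reads in replicate 2 and 1 in replicate 1. The part of these differences in the lower levels of Mir29a and Mir29c was not tested.

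The other microRNAs known from fibrosis, where miR-29 is counted among those that restrain it, are read here against the 63.0% of all genes that were called. Of 7 genes that promote fibrosis, 6 had enough reads, and of these 1 was higher, 3 lower and 2 not called in replicate 2, with a median log2 ratio of -0.10 against 0.02 over all genes. Mir21a, the most studied of them, had 5974 CPM in replicate 2 and 8885 CPM in replicate 1, 1.42-fold lower (1.39 to 1.45). Of 17 genes that restrain fibrosis, miR-29 left aside, 13 had enough reads, with 3 higher, 5 lower and 5 not called and a median of -0.08. By total reads or upper quartiles 3 of them were higher and 7 lower, with medians of -0.14 and -0.17. The 3 most abundant were Mir30a with 20720 CPM in replicate 2 and 22370 CPM in replicate 1 (lower), Mir26b with 19280 and 17320 CPM (higher), and Mir30d with 10170 and 12340 CPM (lower). Neither list went 1 way.

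Of 15 genes known from myoblast differentiation, 13 had enough reads, with 7 higher, 1 lower and 5 not called in replicate 2 and a median log2 ratio of 0.15. The 8 calls among 13 genes are close to the 63.0% called over all genes. By direction, 91 of all 273 genes were called higher, a smaller share than the 7 of 13 in this list, and 81 were called lower. Mir206 was 3.40-fold higher in replicate 2 (3.36 to 3.45). Mir322 had 10640 CPM in replicate 2 and 10730 CPM in replicate 1, and its call as higher (1.04-fold) was lost or turned when the libraries were scaled by total reads or upper quartiles. Mir27b had 4827 CPM in replicate 2 and 4301 CPM in replicate 1 and was 1.18-fold higher (1.14 to 1.21). By total reads or by upper quartiles 5 genes were higher, as Mir1a-2 and Mir322 dropped out. The counts of Mir1a and Mir133a genes, like those of Mir29b, lack the reads that fit identical copies.

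Of 9 genes known to target DNA methyltransferases or Tet enzymes, 8 had enough reads, with 1 higher, 3 lower and 4 not called and a median log2 ratio of -0.20. By total reads or upper quartiles 1 was higher and 4 lower. Over all genes 63.0% were called and 29.7% were lower, so these counts are no result about the list. Mir22, a Tet2 regulator, had 26250 CPM in replicate 2 and 27500 CPM in replicate 1 and was not called. Mir26b, shared with the list of genes that restrain fibrosis, was 1.17-fold higher (1.15 to 1.18). Mir101b, the third in abundance, had 738 CPM in replicate 2 and 990 CPM in replicate 1 and was 1.28-fold lower (1.19 to 1.38). The lists overlap and were drawn up with earlier results of these data known, so their counts are descriptions.

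The sites at which the shared seed can pair were read from the annotation, since no mRNA was measured. The letters TGGTGCT, the reverse complement of seed bases 2 to 8, were searched on the sense strand of the longest annotated 3′ untranslated region of each coding gene. They occurred in 2755 of 21020 genes (13.1%). They occurred in 15 of 17 genes listed as known miR-29 targets, all but Col1a2 and Sparc, in whose regions these letters are not found. The targets were picked as known, and their regions were longer, with a median of 2079 bases against 961, so this count is no finding. Sites of 4 matrix genes are shown with the match in capitals.
Col1a1: gtgggaaggaatttcTGGTGCTa
Col3a1: ttcaaaatgtctcaaTGGTGCTa
Eln: cgacctcatcaacgtTGGTGCTa
Fbn1: tttctgttgtctgttTGGTGCTa
Col1a1 and Col3a1 encode fibrillar collagens, Eln elastin and Fbn1 fibrillin. Eln held 3 matches and Fbn1 2, of which the first is shown. Among regions within 10% of the same length, the letters occurred in 13.4% for Col1a1, 10.1% for Col3a1, 11.1% for Eln and 9.61% for Fbn1. The match pairs alike with the seed of miR-29a, miR-29b and miR-29c.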

How the data were processed

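MicroRNA-seq libraries were made from total RNA with a size range under 30 nucleotides, per the labels. For each microRNA gene the authors deposited a raw read count, made on mm10 with GENCODE M21 according to their read-me text. How reads were aligned and counted is not given in the sources used here. Below 4 summary rows, the 3 columns, which carry no header, were read from their values as unstranded, on the gene's strand (used) and on the opposite strand. Summary rows stayed out of library sizes, CPM and tests. All 2202 identifiers matched the annotation.

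Genes with at least 10 reads in both libraries were tested. TMM factors and the common dispersion came from edgeR 4.0.16 (R 4.3.3), and the binomial and Fisher's tests from scipy 1.17.1. Ratios are replicate 2 over replicate 1. DESeq2 1.42.0 size factors, other scalings, read minimums, strand settings, denominators and pseudocounts, and leaving out each replicate were tried. The procedures were tested on simulated counts with counting error only, which says nothing about the spread beyond it in these libraries. The named genes were the 4 members, the 3 nearest genes of each, and up to 3 of the most abundant of each list, with list and marker members also named where counts are small. One known target is not reported here. The members and lists were chosen with earlier results of these data known. Sequences and hairpin positions came from RefSeq and GENCODE, which gave the same hairpins for all 4 genes.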

Additional observations from a re-analysis of the deposited data

Results flagged for a closer look

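Reads outside the counts used here were many. Reads placed at several loci numbered 10919725 in replicate 2 and 7195252 in replicate 1, that is 5.25 and 4.51 for each gene-assigned read. Uniquely placed reads outside microRNA genes numbered 232773 in replicate 2 and 142257 in replicate 1. How many of either come from miR-29b-3p, which is identical at both of its loci, was not tested, since the tables do not give their sequences.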

How the results depend on the processing

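Of 105 alternative values for 28 results, 90 kept their direction and call or, without a test, moved by less than 1 SD, 2 lost their call, 13 moved further and 0 reversed. The miR-29 genes had the same reads with and without regard to strand. Their shares of family reads and the ratios between members were therefore fixed under that setting, and these values count among the 90. With 2 libraries, leaving out either stays within 1 SD of the mean by construction. The levels then ranged from 1441 to 2379 CPM for Mir29a and from 559 to 1596 CPM for Mir29c, the family's share of gene-assigned reads from 0.202% to 0.400%, and the share of family reads held by Mir29b-1 from 0.267% to 0.571%. The calls of Mir29a (log2 ratio -0.66) and Mir29c (-1.45) and the count of calls (4) were lost or reduced when edgeR's common dispersion was used in an exact test, which allows for a spread beyond counting error. With multiply placed reads in the denominator the mean levels were 330.9 CPM for Mir29a, 189 CPM for Mir29c, 1.89 CPM for Mir29b-1 and 1.91 CPM for Mir29b-2, and the family's share was 0.0524%. Without regard to strand, where 600542 reads of replicate 2 and 508697 of replicate 1 are left ambiguous and out of the denominator, the means were 2760 CPM for Mir29a, 1565 CPM for Mir29c, 15.95 CPM for Mir29b-1 and 15.98 CPM for Mir29b-2, and the family's share was 0.436%. Without the most abundant gene in the denominator they were 13.2 CPM for Mir29b-1 and 13.2 CPM for Mir29b-2. Both Mir29b genes fell out at a minimum of 50 reads. No paired analysis was possible because there is only 1 group.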
